A study of Rattus norvegicus with 9 samples.

Results

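Matrix proteases and their inhibitors were followed in rat dorsal root ganglia (DRGs), where the cell bodies of sensory neurons lie. The members were the genes of the deposited expression table whose symbols start with Mmp or Timp followed by a digit, or with Adamts. This gave 49 of the 20413 genes of the table, namely 21 matrix metalloproteinases (MMPs), 4 tissue inhibitors of metalloproteinases (TIMPs), 19 ADAMTS proteases and 5 ADAMTS-like genes. The choice used symbols and no measured value.

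RNA-Seq was carried out on ipsilateral L4–6 DRGs of male Sprague-Dawley rats aged 8 to 10 weeks, collected on day 10, after perfusion with saline. Chronic post-ischemia pain (CPIP) was made by closing off the blood flow of the hind limb at the ankle for 3 h with a tight O-ring. The Sham group, named control in the labels, had the same anesthesia and a cut ring that left the blood flow open. The CPIP+EA group had the ischemia and then 100 Hz electroacupuncture (EA) of the hind limbs each day for 10 days. Each group had 3 libraries from 3 rats, and no sequenced group had needles without current, so needling and current cannot be told apart. The study states that rats were loosely immobilized for EA. It does not say whether the other rats were, so this handling cannot be told apart from EA either. The design asks which genes differ after ischemia, and which of these differ further with EA.

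Matrix proteases cut the proteins and proteoglycans between cells. MMPs and ADAMTS proteases use a zinc ion for this and are made as inactive precursors, which other proteases such as furin or plasmin, or other MMPs, activate. TIMPs bind the active site and block it. In injured peripheral nerve, MMPs are known for opening the blood-nerve barrier, for cutting cytokines and myelin proteins, and for shaping the path of regrowing axons. A transcript level is not a protease activity, since activation and inhibition act on the protein.

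The values are FPKM, fragments scaled to the length of the transcript and to the mapped fragments of the library. Levels can be compared between genes because the scale is per length. Differences were tested as log2(FPKM + 0.5) by limma, all 9 libraries being fitted together, for the 17187 genes that averaged 0.1 FPKM or more. On this scale the log2 fold change of a gene with low FPKM comes out too small. A differentially expressed gene (DEG) had a Benjamini-Hochberg adjusted p under 0.01 and a change of at least 1.5-fold in either direction. FPKM carry no counts, so the number of fragments behind each value is unknown, although the study states the reads of each library. Precision rests on 3 libraries per group, with the spread within groups pooled over all 9.

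Markers of sensory neurons were high in every library, with a sum over 12 genes between 7220 and 8970 FPKM. Marker sums of other tissues stood apart in some libraries. The third CPIP+EA library had the highest sum of 8 neutrophil markers, 630 FPKM against 34.9 to 266 in the others, and of erythroid markers, 2390 FPKM against 262 to 1520. The second CPIP library had the highest sum of skeletal muscle markers, 122 FPKM against 7.52 to 37.3. For several results the values without either library are also given. In bulk tissue, fewer cells of a type and less RNA per cell cannot be told apart.

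The 3 most abundant members were inhibitors, while Timp4, the other TIMP, averaged 3.67 FPKM over the 9 libraries. Timp2 (gene ID 29543), which blocks MMPs and also helps to activate pro-MMP2 at the cell surface, averaged 260 ± 14.5 FPKM in Sham (SD, n = 3). Timp3, the TIMP that binds to the matrix and also blocks ADAMTS proteases, averaged 133 ± 9.57 FPKM, and Timp1, the TIMP that inflammatory signals are known to induce, 61.5 ± 5.07 FPKM in the same group. The most abundant proteases were Mmp15 and Mmp14, membrane-type MMPs that cut at the cell surface, with 48.7 ± 2.01 and 43.3 ± 1.62 FPKM in Sham. They were followed by Mmp2, the gelatinase that MMP14 activates, with 30.8 ± 1.88 FPKM.

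Summed over each family, the 4 TIMPs lay between 438 and 490 FPKM in the 9 libraries and the 21 MMPs between 144 and 185 FPKM. The 19 ADAMTS genes lay between 68.3 and 87.1 FPKM and the 5 ADAMTS-like genes between 28.3 and 38.1 FPKM. The ADAMTS-like sum was 35.8, 38.1 and 34.5 FPKM in Sham, 32.9, 33.3 and 33.9 FPKM in CPIP, and 28.3, 29.2 and 32.0 FPKM in CPIP+EA. For this family each Sham library was above each CPIP library, and each CPIP library above each CPIP+EA library, by these sums, which were not tested. Adamtsl4, with a mean of 18.8 FPKM, was the largest part of the sum. By gene, the Sham and CPIP libraries overlapped for all 5, and those of CPIP and CPIP+EA for all but 2, Adamtsl1 and Adamtsl2. The ADAMTS sum was 76.8, 79.1 and 87.1 FPKM in Sham, 77.1, 77.7 and 78.8 FPKM in CPIP, and 71.3, 68.3 and 76.2 FPKM in CPIP+EA, so its CPIP+EA libraries were also below all the others, while Sham and CPIP overlapped. The MMP and TIMP sums overlapped between all 3 groups.

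Of the 49 members, 43 passed the filter on low values. The other 6 were Mmp1 (a collagenase), Mmp7 (matrilysin), Mmp20 (the enamel protease), Mmp21, Mmp27 and Adamts19. Adamts19 reached at most 0.07 FPKM. Mmp27 reached 0.12 FPKM in the third CPIP+EA library and was listed at 0 in the other 8. Mmp1, Mmp7, Mmp20 and Mmp21 were listed at 0 in at least 7 libraries each and reached at most 0.06 FPKM. Mmp1b and Mmp10 were not analysed here.

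CPIP was compared with Sham to find what ischemia and reperfusion of the limb left in the DRG on day 10. Mmp3 and Mmp16 rose past the DEG threshold and no member fell past it. That is 2 of the 43 tested members, where 0.355% of all tested genes were DEGs. Mmp3 averaged 0.0333 FPKM and Mmp12 0.0233 FPKM in Sham. Both passed the filter of 0.1 FPKM only through the libraries after ischemia, so their place among the tested members rests on the values compared. At an unadjusted p under 0.05, 8 members were higher in CPIP and 2 were lower, where 4.61% of all tested genes were higher and 4.06% lower. The groups did not overlap for 12 members, or 27.9%, against 15.9% of all tested genes. The median log2 fold change over the 43 members was -0.026, and over all tested genes it was -0.0064. By family, 5 of 16 MMPs, 1 of 4 TIMPs and 2 of 18 ADAMTS genes were higher at an unadjusted p under 0.05, and 2 of 18 ADAMTS genes were lower. None of the 5 ADAMTS-like genes passed in either direction.

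Mmp3 (gene ID 171045) encodes stromelysin-1, a secreted protease that cuts proteoglycans, laminin and fibronectin and activates other pro-MMPs. Its values were 0, 0.07 and 0.03 FPKM in Sham, 1, 1.04 and 1.31 FPKM in CPIP, and 0.89, 1.47 and 1.98 FPKM in CPIP+EA. Each of the 6 libraries after ischemia was above each Sham library, in which the gene was near the floor of the scale. The log2 fold change of CPIP against Sham was 1.60 with an SE of 0.199 (limma, adjusted p = 0.00659), and it ranged from 1.03 with a pseudocount of 1 to 3.21 with 0.1. It was 1.63 without the second CPIP library, with an adjusted p of 0.0335. Over the alternatives the adjusted p ranged from 0.00148 to 0.0429, so the call at 0.01 depends on the setting.

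Mmp16 (gene ID 65205) encodes a membrane-type MMP that acts at the cell surface and can activate pro-MMP2. Its values were 1.95, 1.73 and 1.76 FPKM in Sham, 3.55, 3.62 and 3.55 FPKM in CPIP, and 4.18, 4.02 and 3.37 FPKM in CPIP+EA. No library after ischemia reached down to the Sham libraries. CPIP averaged 3.57 ± 0.0404 FPKM against 1.81 ± 0.119 FPKM in Sham (SD, n = 3). The log2 fold change was 0.82 with an SE of 0.103 (limma, adjusted p = 0.00694), and the adjusted p ranged from 0.00404 to 0.0442 over the alternatives. Without the second CPIP library it was 0.81, with an adjusted p of 0.0442.

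The other 5 membrane-type MMPs that were tested did not pass at an unadjusted p under 0.05. Mmp14 had 42.85, 41.95 and 45.09 FPKM in Sham and 41.66, 45.80 and 34.90 FPKM in CPIP, so the groups overlapped. Mmp15 had 46.56, 49.02 and 50.55 FPKM in Sham and 50.48, 51.55 and 44.05 FPKM in CPIP, with a log2 fold change of -0.0031. Mmp17, Mmp24 and Mmp25 had log2 fold changes between -0.23 and 0.048. Within this group of related proteases Mmp16 was thus the member past the threshold, and no test compared it with the others.

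**Figure D1:**
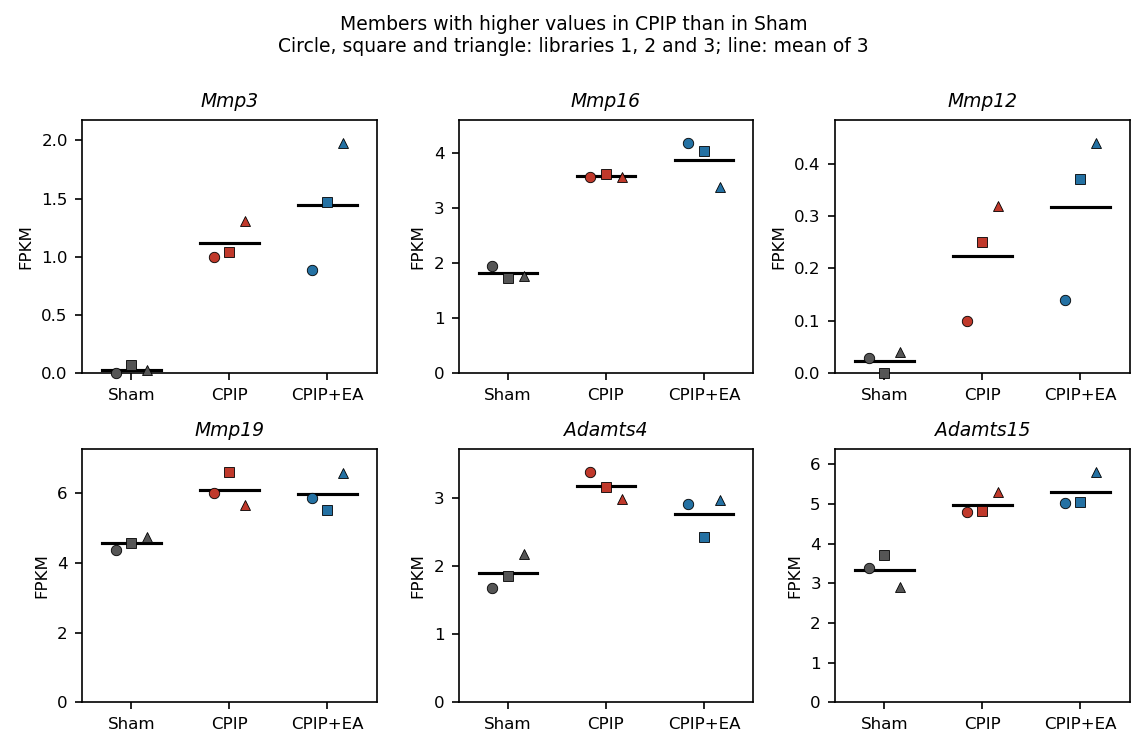
FPKM per library (vertical axis, from 0) of Mmp3, Mmp16, Mmp12, Mmp19, Adamts4 and Adamts15 in Sham, CPIP and CPIP+EA (horizontal axis). Circles, squares and triangles are libraries 1, 2 and 3 and lines are means of 3. In each panel the 6 libraries after ischemia sit above the 3 Sham libraries, as for Mmp16, with 3.37 to 4.18 against 1.73 to 1.95 FPKM.

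Adamts4 and Adamts15 are ADAMTS proteases that cut the core proteins of large proteoglycans such as aggrecan and versican. Adamts4 had 1.68, 1.86 and 2.18 FPKM in Sham and 3.39, 3.16 and 2.99 FPKM in CPIP. Adamts15 had 3.39, 3.71 and 2.91 FPKM in Sham and 4.81, 4.83 and 5.31 FPKM in CPIP. For both genes the lowest CPIP library was above the highest Sham library. The log2 fold changes were 0.62 (SE 0.118, limma adjusted p = 0.0578) and 0.52 (SE 0.107, adjusted p = 0.0787), so neither passed the DEG threshold. Over the alternatives the adjusted p of Adamts4 ranged from 0.0423 to 0.225 and that of Adamts15 from 0.0626 to 0.301.

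Mmp19, a secreted MMP that cuts basement membrane proteins, had 4.36, 4.56 and 4.74 FPKM in Sham and 6.00, 6.61 and 5.64 FPKM in CPIP. Mmp12, the macrophage elastase, had 0.03, 0 and 0.04 FPKM in Sham and 0.10, 0.25 and 0.32 FPKM in CPIP. The groups did not overlap for either gene, with log2 fold changes of 0.38 (limma adjusted p = 0.164) and 0.46 (adjusted p = 0.473). Mmp12 did not pass at an unadjusted p under 0.05 without the first or second Sham library or the second or the third CPIP library, being 0.42 (adjusted p = 0.734) without the second CPIP library, and it ranged from 0.25 with a pseudocount of 1 to 1.34 with 0.1. The sum of 7 macrophage markers was 54.5, 62.0 and 48.8 FPKM in Sham, 52.4, 64.7 and 65.3 FPKM in CPIP, and 58.2, 52.3 and 78.3 FPKM in CPIP+EA, with overlap between the groups. Of these 7 markers, 1 was higher at an unadjusted p under 0.05 in CPIP, where 4.61% of all tested genes were. It was Cx3cr1, with a log2 fold change of 0.54 (adjusted p = 0.219). In CPIP+EA against Sham, 2 were higher, Cx3cr1 and Aif1, where 6.59% of all tested genes were. The part of these markers in the values of Mmp12 was not tested. Mmp28, epilysin, a secreted MMP, had 1.44, 0.91 and 1.81 FPKM in Sham and 3.43, 1.92 and 1.77 FPKM in CPIP. Its groups overlapped, and its log2 fold change of 0.59 (adjusted p = 0.531) was 0.34 without the first CPIP library and 0.40 without the second Sham library. It did not pass at an unadjusted p under 0.05 without either of these, the first Sham library or the first CPIP+EA library.

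Lower values in CPIP were found for Adamts17 and Adamts9. Adamts17, an ADAMTS member tied to fibrillin microfibrils, had 3.61, 3.22 and 3.73 FPKM in Sham, 2.53, 2.76 and 2.04 FPKM in CPIP, and 2.96, 2.71 and 3.05 FPKM in CPIP+EA. Adamts9, a versican-cutting protease, had 2.30, 2.60 and 2.74 FPKM in Sham and 2.14, 1.98 and 1.84 FPKM in CPIP. Each Sham library was above each CPIP library for both genes. The log2 fold changes were -0.46 (limma adjusted p = 0.194) and -0.29 (adjusted p = 0.442). Adamts9 did not pass at an unadjusted p under 0.05 without the second or the third Sham library or the third CPIP library. The proteoglycan-cutting ADAMTS genes thus had values on both sides, with 2 of 7 higher and 1 of 7 lower at an unadjusted p under 0.05 and a median log2 fold change of 0.028. Adamts1 of the same group had groups that did not overlap, with a mean of 6.25 ± 0.424 FPKM in Sham and 4.70 ± 0.303 FPKM in CPIP (SD, n = 3, adjusted p = 0.579). Of all tested genes, 4.61% were higher and 4.06% lower in CPIP at an unadjusted p under 0.05, and 15.9% had groups that did not overlap.

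**Figure D2:**
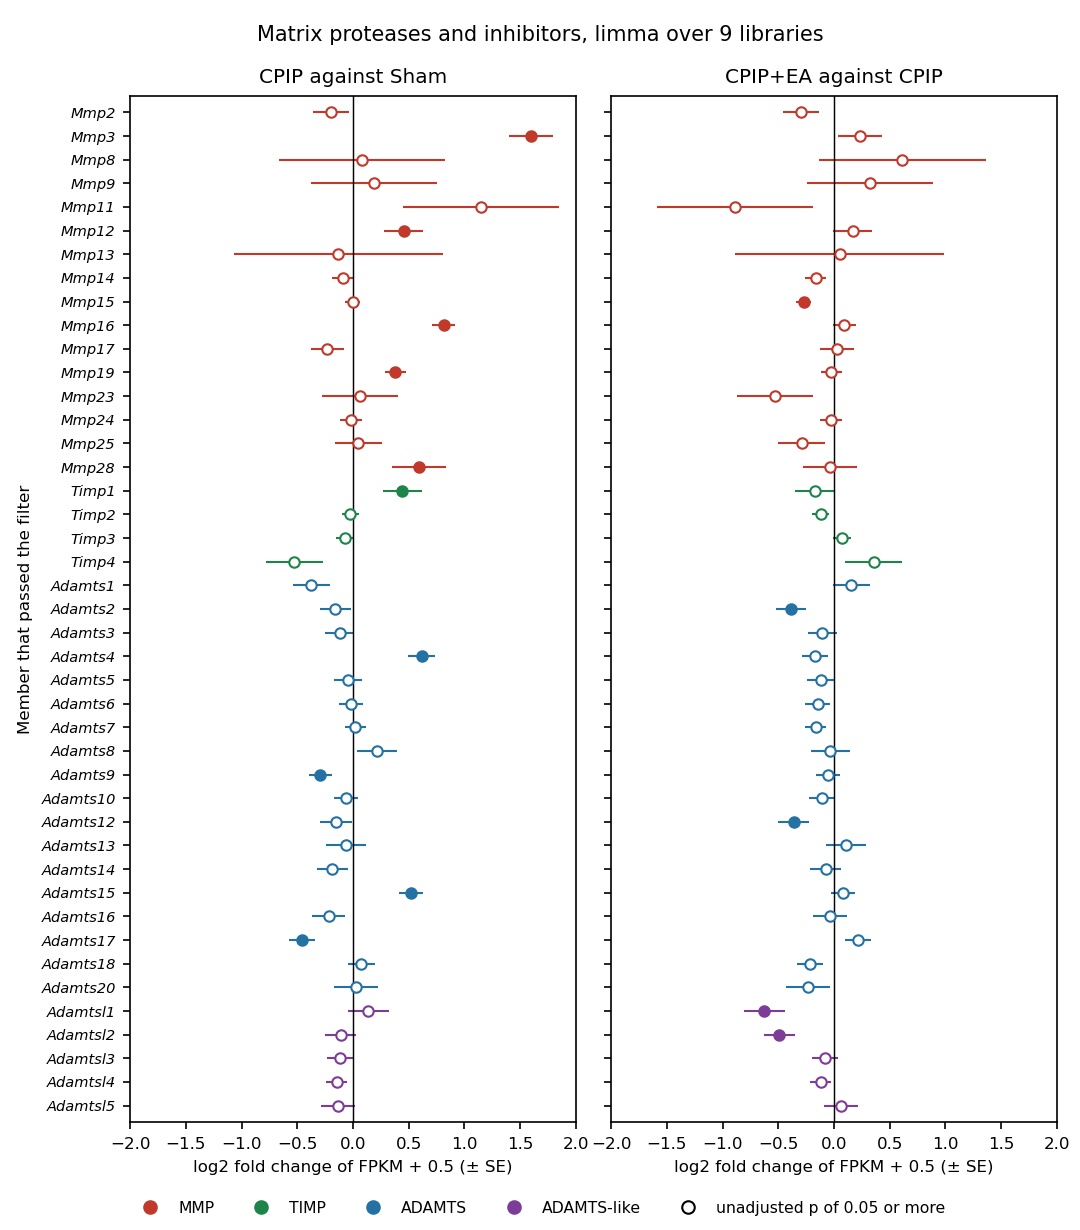
Log2 fold change of FPKM + 0.5 (horizontal axis, dot, with its SE as a bar) of the 43 tested members (vertical axis) for CPIP against Sham and CPIP+EA against CPIP, coloured by family. Filled dots had an unadjusted p under 0.05: 8 to the right and 2 to the left of 0 in the first panel, and 5 to the left in the second.

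Mmp3 and Mmp12 lie in the MMP cluster of chromosome 8. In the RefSeq gene list of the assembly GRCr8 this cluster runs Mmp13, Mmp12, Mmp1b, Mmp3, Mmp1, Mmp10, Mmp8, Mmp27, Mmp20 and Mmp7, with no other protein-coding gene between them. Neighbours in it had very different levels: Mmp8 averaged 2.83 ± 1.06 FPKM and Mmp13 2.70 ± 2.28 FPKM in Sham (SD, n = 3), Mmp3 and Mmp12 were near 0 there, and Mmp1, Mmp20 and Mmp7 were at 0 in all 3 Sham libraries. The factor AP-1, a dimer of Fos and Jun proteins, is known for its site in the promoters of several MMP genes of this cluster. The stretches of 120 bases before the annotated starts are shown, so that Mmp3, which rose, can be read beside Mmp12, which was higher only at an unadjusted p under 0.05, Mmp13 and Mmp8, which did not pass in any comparison, and Mmp1, which was too low to be tested. They are from RefSeq, build GRCr8, plus strand, 5′ to 3′, and end at position -1. Capitals mark TGANTCA, the AP-1 motif, searched on both strands, where it reads the same.
Mmp3, chr8:12925161-12925280: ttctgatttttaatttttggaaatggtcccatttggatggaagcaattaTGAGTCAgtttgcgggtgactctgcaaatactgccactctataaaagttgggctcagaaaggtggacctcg
Mmp12, chr8:12866532-12866651: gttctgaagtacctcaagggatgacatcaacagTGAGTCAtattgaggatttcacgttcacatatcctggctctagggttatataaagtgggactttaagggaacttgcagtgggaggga
Mmp13, chr8:12782709-12782828: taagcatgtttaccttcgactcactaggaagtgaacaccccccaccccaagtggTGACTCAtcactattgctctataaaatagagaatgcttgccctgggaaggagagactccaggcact
Mmp1, chr8:12943333-12943452: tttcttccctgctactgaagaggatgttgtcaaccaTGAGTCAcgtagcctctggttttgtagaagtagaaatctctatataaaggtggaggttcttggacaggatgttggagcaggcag
Mmp8, chr8:13008770-13008889: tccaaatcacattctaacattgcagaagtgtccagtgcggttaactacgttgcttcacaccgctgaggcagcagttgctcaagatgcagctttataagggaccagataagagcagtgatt

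The motif begins at position -71 in Mmp3, -87 in Mmp12, -66 in Mmp13 and -84 in Mmp1, and it is not in the Mmp8 window. Mmp1 has a further match at -242, outside the stretch shown, Mmp20 has a match at -96 and Mmp7 at -80, while Mmp27 has none. Windows of 250 bases before to 50 bases after the start were found for 38 members, and 6 of them, or 15.8%, hold the motif, against 7.33% of 33469 windows of all genes. All 6 lie in the chromosome 8 cluster, and 0 of the 30 members with a window outside it hold the motif. The 11 members without a window in the table were Adamts5, Adamts8, Adamts15, Adamts16, Adamts19, Mmp2, Mmp9, Mmp14, Mmp16, Mmp17 and Mmp19. Genes with a match include Mmp3, which rose, and Mmp1, Mmp7 and Mmp20, which were at 0 in each Sham and CPIP library. A match is a run of letters and was not tested for binding.

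Timp1 was the inhibitor with higher values in CPIP. It had 57.04, 67.01 and 60.46 FPKM in Sham, 87.73, 85.99 and 77.61 FPKM in CPIP and 61.89, 63.38 and 103.90 FPKM in CPIP+EA. Each CPIP library was above each Sham library, whereas CPIP+EA held 2 libraries in the Sham range and 1 above all others. The log2 fold change of CPIP against Sham was 0.44 with an SE of 0.176 (limma, adjusted p = 0.509), and the SE of this fit takes in the spread of the CPIP+EA libraries. When the third CPIP+EA library was left out, the log2 fold change stayed 0.44 and the adjusted p was 0.0363. It did not pass at an unadjusted p under 0.05 without the first or the third Sham library or the first or second CPIP library, with values between 0.39 and 0.43 and an adjusted p of up to 0.802.

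Timp2 had 271.30, 243.52 and 264.70 FPKM in Sham, 259.04, 265.13 and 241.19 FPKM in CPIP, and 242.53, 245.55 and 216.42 FPKM in CPIP+EA. Timp3 had 143.61, 126.21 and 128.00 FPKM in Sham, 126.71, 135.38 and 117.45 FPKM in CPIP, and 143.36, 126.64 and 129.26 FPKM in CPIP+EA. Both genes overlapped between all groups, and their log2 fold changes in CPIP were -0.026 (SE 0.0763) and -0.068 (SE 0.0805). Timp4, the TIMP known from heart and brain, had 3.82, 4.84 and 4.12 FPKM in Sham, 2.62, 3.77 and 2.17 FPKM in CPIP, and 5.67, 3.41 and 2.60 FPKM in CPIP+EA. Its Sham libraries were above its CPIP libraries, with a log2 fold change of -0.53 (SE 0.255, limma adjusted p = 0.645).

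**Figure D3:**
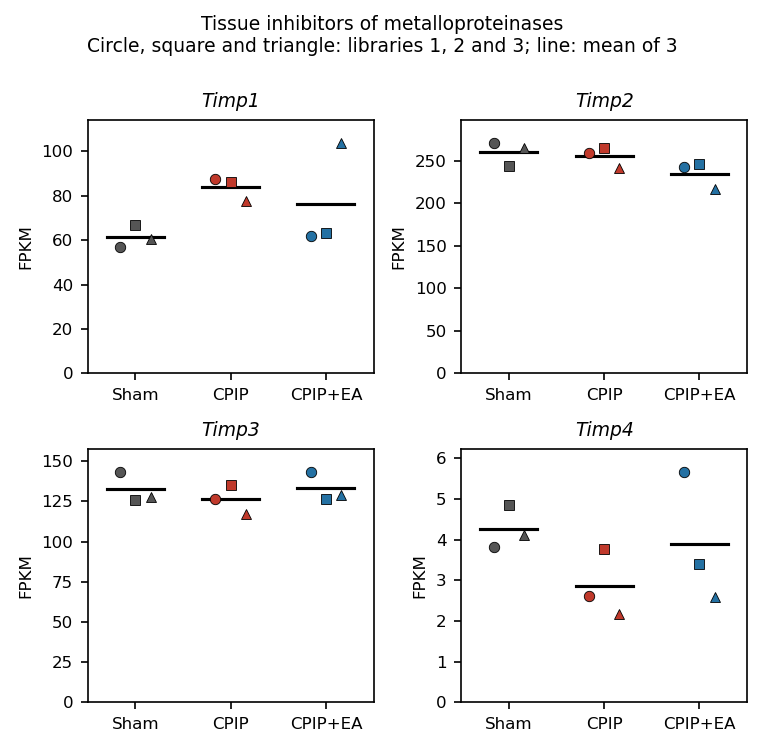
FPKM per library (vertical axis, from 0) of Timp1, Timp2, Timp3 and Timp4 in Sham, CPIP and CPIP+EA. Circles, squares and triangles are libraries 1, 2 and 3 and lines are means of 3. Timp1 has 77.61 to 87.73 FPKM in CPIP against 57.04 to 67.01 FPKM in Sham, and 1 CPIP+EA library at 103.90 FPKM stands above the others.

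CPIP+EA was compared with CPIP to find what EA added. No member passed the DEG threshold with limma, and neither did any other gene, so 0% of the 17187 tested genes were DEGs, with 738 of them at an unadjusted p under 0.05. Mmp3 and Mmp16, which rose with CPIP, had log2 fold changes of 0.23 (SE 0.199) and 0.092 (SE 0.103) with EA, and for both the 2 groups overlapped. At an unadjusted p under 0.05, 0 members were higher and 5 were lower with EA, where 2.22% of all tested genes were higher and 2.07% lower. The groups did not overlap for 7 members, or 16.3%, all lower with EA, against 8.23% of all tested genes. The median log2 fold change was -0.082 over the 43 members and 0.012 over all tested genes. The 5 were Mmp15, Adamtsl1, Adamtsl2, Adamts2 and Adamts12, each with an adjusted p of 0.996.

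Mmp15, the membrane-type MMP with the highest FPKM of all proteases here, had 50.48, 51.55 and 44.05 FPKM in CPIP and 40.17, 39.26 and 41.08 FPKM in CPIP+EA. All 3 CPIP+EA libraries were below all 6 libraries of the other groups, the log2 fold change being -0.27 with an SE of 0.0685. Adamtsl1 and Adamtsl2 belong to the ADAMTS-like genes, which lack the protease domain, and several of which bind to the fibrillin network. Adamtsl1 had 3.43, 3.15 and 3.47 FPKM in Sham, 4.75, 3.41 and 3.20 FPKM in CPIP, and 1.98, 1.84 and 3.05 FPKM in CPIP+EA. Adamtsl2 had 2.20, 2.03 and 2.47 FPKM in Sham, 2.14, 1.80 and 2.15 FPKM in CPIP, and 1.20, 1.08 and 1.66 FPKM in CPIP+EA. Their CPIP+EA libraries were below those of both other groups, with log2 fold changes against CPIP of -0.63 (SE 0.184) and -0.49 (SE 0.141). In both genes the third CPIP+EA library was nearest to the other groups, and without it the values were -0.81 and -0.62. With 1 library left out, the smallest changes were -0.47 for Adamtsl1, without the first CPIP library, and -0.40 for Adamtsl2, without the second CPIP+EA library.

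Adamts2 removes the amino-terminal propeptide of procollagens, a step of collagen fibril assembly. It had 9.60, 9.69 and 8.22 FPKM in Sham, 7.02, 9.08 and 8.47 FPKM in CPIP, and 6.43, 5.02 and 7.08 FPKM in CPIP+EA. The third CPIP+EA library lay above the first CPIP library, so these groups overlapped, with a log2 fold change of -0.39 (SE 0.138). Adamts12, which cuts cartilage oligomeric matrix protein, had 2.34, 3.18 and 2.80 FPKM in Sham, 2.27, 2.37 and 2.64 FPKM in CPIP, and 2.04, 1.43 and 1.90 FPKM in CPIP+EA. Its CPIP+EA libraries were below all the others, with a log2 fold change against CPIP of -0.36 (SE 0.142). Without the second CPIP+EA library, the lowest for both genes, neither passed at an unadjusted p under 0.05, and the count of 5 members became 3. Neither passed without the second or the third CPIP library.

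Markers of fibroblasts and meninges had lower sums in the same group. The sum of 8 such markers was 1610, 1510 and 1990 FPKM in Sham, 1580, 1710 and 1630 FPKM in CPIP, and 1140, 878 and 1620 FPKM in CPIP+EA. All 8 markers were in the table, with none at 0 in any library, and 0 of 8 passed at an unadjusted p under 0.05 between CPIP+EA and CPIP (median log2 fold change -0.29). The first and second CPIP+EA libraries had the lowest sums, and the same libraries were the lowest for Mmp15, Adamtsl1, Adamtsl2 and Adamts2. For Adamts12 the second and the third CPIP+EA libraries were the lowest. The sum of 6 Schwann cell markers was 6960, 8900 and 11000 FPKM in Sham, 11800, 10800 and 6620 FPKM in CPIP, and 4640, 6810 and 9200 FPKM in CPIP+EA. Of these 6, Prx was lower at an unadjusted p under 0.05 between CPIP+EA and CPIP, and the median over the 6 was -0.46 on the log2 scale. Of 6 cartilage and bone markers, 2 were lower and 0 higher in that comparison, with a median of -0.18. Lower values were found for 2.07% of all tested genes. The part of these marker lists in the result was not tested.

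**Figure D4:**
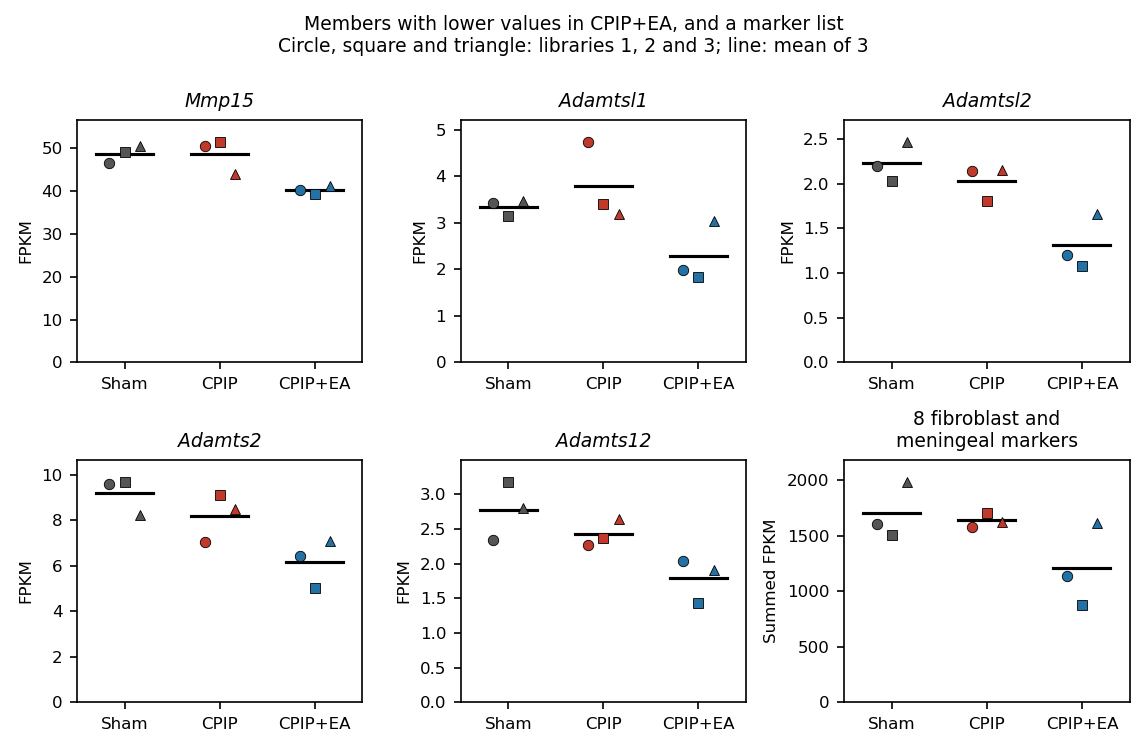
FPKM per library (vertical axis, from 0) of Mmp15, Adamtsl1, Adamtsl2, Adamts2 and Adamts12, and the summed FPKM of 8 fibroblast and meningeal markers, in Sham, CPIP and CPIP+EA. Circles, squares and triangles are libraries 1, 2 and 3 and lines are means of 3. The CPIP+EA mean is lowest in each panel, as for Mmp15 with 39.26 to 41.08 FPKM, while the third CPIP+EA library reaches 1620 FPKM in the marker sum.

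Timp1 had a log2 fold change of -0.17 (SE 0.176) between CPIP+EA and CPIP. The value was -0.42 without the third CPIP+EA library, where it passed at an unadjusted p under 0.05 (limma adjusted p = 0.376), and -0.043 without the first. Timp4 had 0.36 (SE 0.255), which was 0.58 without the third and 0.082 without the first CPIP+EA library. Timp4 was also 0.55 without the second and 0.21 without the third CPIP library. Single libraries therefore set the size of both values, those of CPIP+EA for Timp1 and those of both groups for Timp4. Of the members higher in CPIP, Adamts4 had 2.91, 2.43 and 2.98 FPKM in CPIP+EA, each below the lowest of CPIP, and a log2 fold change of -0.17 (SE 0.118). Adamts15 and Mmp19 had 0.079 (SE 0.107) and -0.025 (SE 0.0943).

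Mmp8 and Mmp9, the collagenase and gelatinase stored in the granules of neutrophils, varied widely within groups. Mmp8 had 1.76, 2.84 and 3.88 FPKM in Sham, 3.65, 6.11 and 0.93 FPKM in CPIP, and 1.54, 3.86 and 15.35 FPKM in CPIP+EA. Mmp9 had 0.54, 1.40 and 0.74 FPKM in Sham, 1.03, 2.35 and 0.33 FPKM in CPIP, and 0.42, 1.42 and 3.53 FPKM in CPIP+EA. For both genes the third CPIP+EA library was the highest and the third CPIP library the lowest of the 9. The sum of 8 neutrophil markers was 52.5, 153 and 117 FPKM in Sham, 157, 266 and 34.9 FPKM in CPIP, and 68.2, 174 and 630 FPKM in CPIP+EA, with the same libraries highest and lowest. None of these 8 markers was at 0 in any library, and the list holds neither Mmp8 nor Mmp9. Their part in the result was not tested.

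The log2 fold change of CPIP+EA against CPIP was 0.62 (SE 0.748) for Mmp8 and 0.33 (SE 0.568) for Mmp9, with an adjusted p of 0.996 for both. Without the third CPIP+EA library they were -0.19 and -0.21, and without the first they were 1.29 and 0.86. Without the third CPIP library they were -0.0091 and -0.12, so the direction of both rests on single libraries. Mmp13, collagenase-3, known from cartilage and bone, had 2.80, 4.93 and 0.38 FPKM in Sham, 4.10, 2.75 and 0.30 FPKM in CPIP, and 0.25, 5.28 and 2.56 FPKM in CPIP+EA. Libraries of 1 group differed more than 10-fold, and its SE of 0.937 was the largest among the members. The sum of 6 cartilage and bone markers was 12.3, 57.9 and 17.6 FPKM in Sham, 34.5, 39.5 and 14.1 FPKM in CPIP, and 10.0, 15.8 and 22.5 FPKM in CPIP+EA. The library with the highest sum was also the highest for Mmp13 in Sham, but not in CPIP or CPIP+EA. The library with the lowest sum was also the lowest for Mmp13 in CPIP and CPIP+EA, but not in Sham, and the part of these cells in the values was not tested.

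Mmp11 encodes stromelysin-3, and a second gene of the table, LOC103694874, carries the same protein name in the study's text. Mmp11 had 0, 1.32 and 1.61 FPKM in Sham, 1.83, 2.15 and 2.90 FPKM in CPIP, and 2.22, 1.94 and 0 FPKM in CPIP+EA. LOC103694874 had 1.73 FPKM in the first Sham library, 2.49 FPKM in the third CPIP+EA library and 0 in the other 7, so each library had a value above 0 for exactly 1 of the 2 genes. Their sequences were not compared here, and the value of either gene alone is uncertain. Summed, they were 1.73, 1.32 and 1.61 FPKM in Sham, 1.83, 2.15 and 2.90 FPKM in CPIP, and 2.22, 1.94 and 2.49 FPKM in CPIP+EA. On the sum, the log2 fold change was 0.43 for CPIP against Sham (limma adjusted p = 0.453) and -0.027 for CPIP+EA against CPIP, where Mmp11 alone gave 1.15 and -0.89. For CPIP+EA against Sham the sum gave 0.40 (adjusted p = 0.344) and Mmp11 alone 0.26. The sum passed at an unadjusted p under 0.05 in both comparisons with Sham, and Mmp11 alone, which the counts of members use, in none.

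**Figure D5:**
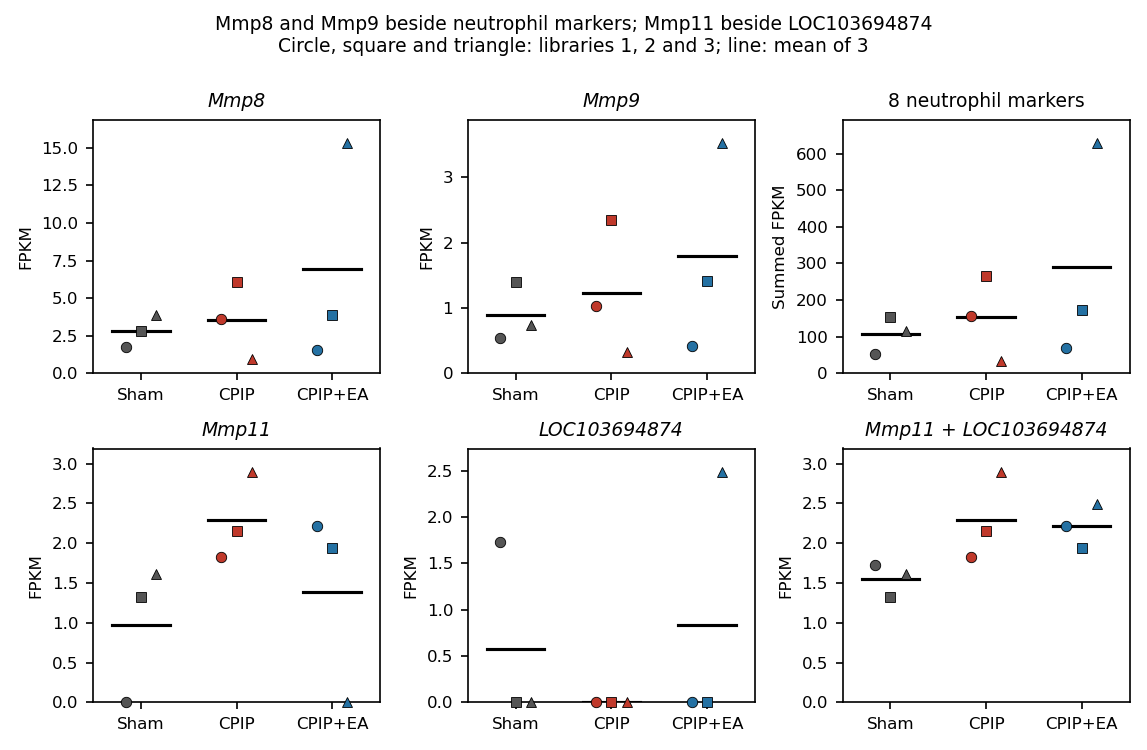
FPKM per library (vertical axis, from 0) of Mmp8, Mmp9, the sum of 8 neutrophil markers, Mmp11, LOC103694874 and the sum of these last 2 genes, in Sham, CPIP and CPIP+EA. Circles, squares and triangles are libraries 1, 2 and 3 and lines are means of 3. The third CPIP+EA library is highest for Mmp8, with 15.35 FPKM, for Mmp9, and for the markers, with 630 FPKM, and the 0 values of Mmp11 sit where LOC103694874 is above 0.

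CPIP+EA was also compared with Sham, which shares its libraries with the other comparisons, so the values are given beside them and not as further support. Mmp3 and Mmp16 rose past the DEG threshold, 2 of 43 members, where 0.483% of all tested genes were DEGs. As stated above, Mmp3 and Mmp12 passed the filter only through the libraries after ischemia. Mmp3 had a log2 fold change of 1.83 (SE 0.199, limma adjusted p = 0.00255) and Mmp16 of 0.91 (SE 0.103, adjusted p = 0.0033). Without the third CPIP+EA library they were 1.64 and 0.99, with adjusted p-values of 0.00442 and 0.00295. Neither passed the DEG threshold without any 1 of the Sham libraries, with adjusted p-values from 0.013 to 0.0171 for Mmp3 and from 0.0126 to 0.0208 for Mmp16, or without the second CPIP+EA library (0.0185 and 0.021). Mmp16 also did not pass it without the second CPIP library (0.0104) or the first CPIP+EA library (0.0163). At an unadjusted p under 0.05, 7 members were higher and 9 lower, where 6.59% of all tested genes were higher and 5.63% lower. The groups did not overlap for 18 members, or 41.9%, against 16.2% of all tested genes, and the median log2 fold change was -0.16 over the members and 0.0015 over all tested genes.

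The other 5 higher members were Adamts15, Adamts4, Mmp19, Mmp12 and Mmp28. Adamts15 had 5.02, 5.06 and 5.82 FPKM in CPIP+EA, all above Sham, with a log2 fold change of 0.60 (limma adjusted p = 0.0318). Mmp19, with 5.85, 5.51 and 6.56 FPKM in CPIP+EA, had a log2 fold change of 0.36 (adjusted p = 0.145), and Adamts4 had 0.45 (adjusted p = 0.145). Mmp12, with 0.14, 0.37 and 0.44 FPKM in CPIP+EA, had 0.62 (adjusted p = 0.167), and Mmp28, with 2.18, 1.90 and 2.60 FPKM, had 0.55 (adjusted p = 0.409). Mmp28 passed at an unadjusted p under 0.05 in 8 of 20 alternatives, and was 0.46 (adjusted p = 0.529) without the third CPIP+EA library and 0.36 (adjusted p = 0.687) without the second Sham library. It did not pass without the first Sham, the second CPIP or either of the other CPIP+EA libraries. The CPIP and CPIP+EA libraries overlapped for each of them except Adamts4.

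The 9 lower members were the 5 that were lower than CPIP, and Adamts9, Mmp2, Mmp14 and Adamtsl4. Against Sham, Adamtsl2 had a log2 fold change of -0.60 (limma adjusted p = 0.0921), Mmp15 of -0.27 (adjusted p = 0.118), Adamts2 of -0.54 (adjusted p = 0.128), Adamts12 of -0.52 (adjusted p = 0.159) and Adamtsl1 of -0.49 (adjusted p = 0.317). None of them passed the DEG threshold. Adamtsl1 did not pass at an unadjusted p under 0.05 without the first or the third Sham library or the first or second CPIP+EA library. Adamts9 had 1.86, 1.78 and 2.04 FPKM in CPIP+EA, with a log2 fold change of -0.35 (adjusted p = 0.213).

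Mmp2 and Mmp14 form the pair in which membrane-bound MMP14, with TIMP2 as the bridge, activates secreted pro-MMP2. Mmp2 had 29.41, 32.90 and 29.96 FPKM in Sham, 26.50, 30.43 and 23.80 FPKM in CPIP, and 18.81, 18.76 and 28.82 FPKM in CPIP+EA. The third CPIP+EA library was close to Sham and the other 2 were far below, with a log2 fold change against Sham of -0.49 (limma adjusted p = 0.242) that was -0.70 (adjusted p = 0.0159) without that library. It was -0.39 without the first or the second CPIP+EA library, and then did not pass at an unadjusted p under 0.05. Mmp14 had 37.67, 35.94 and 34.68 FPKM in CPIP+EA, below all 3 Sham libraries, with a log2 fold change of -0.26 (adjusted p = 0.294). Without the third CPIP+EA library (-0.23, adjusted p = 0.379) or the third Sham library it did not pass at an unadjusted p under 0.05. Adamtsl4, an ADAMTS-like gene of fibrillin fibers, had 20.52, 23.47 and 18.18 FPKM in Sham, 17.42, 18.35 and 20.02 FPKM in CPIP, and 17.63, 17.38 and 16.12 FPKM in CPIP+EA. Its log2 fold change of CPIP+EA against Sham was -0.27 (adjusted p = 0.295). Without the third CPIP+EA library it was -0.23 (adjusted p = 0.393) and without the second Sham library -0.18, and it passed in neither case. All 5 ADAMTS-like genes had a log2 fold change below 0 against Sham, with a median of -0.27. Of the 8 fibroblast and meningeal markers, 4 were lower than Sham at an unadjusted p under 0.05 with a median of -0.46, where 5.63% of all tested genes were lower. The part of these markers in these values was not tested.

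The other tested members did not pass at an unadjusted p under 0.05 in any of the 3 comparisons. Among them, Mmp23 had a log2 fold change of -0.53 (SE 0.341) and Mmp25 of -0.29 (SE 0.21) between CPIP+EA and CPIP. Adamts7, Adamts6 and Adamts18 had -0.17, -0.15 and -0.22 in that comparison, and the groups did not overlap for Adamts7 and Adamts6. Adamts13, which cuts von Willebrand factor, had 0.10. Adamts3, Adamts5, Adamts8, Adamts10, Adamts14, Adamts16, Adamts20, Adamtsl3 and Adamtsl5 had overlapping groups in all 3 comparisons.

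Other genes that act with these proteases were read from a list of 38 activators, receptors and inhibitors, of which 37 were tested, and from a list of 29 substrates. No gene of either list passed the DEG threshold in any comparison. For CPIP against Sham, 3 of 37 activators and inhibitors were higher and 2 lower at an unadjusted p under 0.05, with a median log2 fold change of -0.022, and 0 of 29 substrates were higher and 2 lower, with a median of -0.16. Over all tested genes 4.61% were higher and 4.06% lower. Hpse, heparanase, which cuts heparan sulfate, had 6.11, 6.29 and 6.93 FPKM in Sham and 4.20, 4.46 and 4.74 FPKM in CPIP, without overlap. Its log2 fold change was -0.48 (limma adjusted p = 0.0828). Lum, lumican, a small proteoglycan of collagen fibrils, had a log2 fold change of -0.47 (adjusted p = 0.323), Cspg4, the NG2 proteoglycan, of -0.27 (adjusted p = 0.442) and Adam15, a membrane protease, of 0.19 (adjusted p = 0.487).

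With EA, 0 of 37 activators and inhibitors were higher than in CPIP and 5 lower at an unadjusted p under 0.05, the median log2 fold change being -0.07. Of the 29 substrates, 0 were higher and 8 lower, with a median of -0.23, where 2.22% of all tested genes were higher and 2.07% lower. The sum of the substrates was 1520, 1760 and 1410 FPKM in Sham, 1340, 1550 and 1180 FPKM in CPIP, and 957, 851 and 1520 FPKM in CPIP+EA, so the third CPIP+EA library lay within the range of Sham and of CPIP and the others of its group below both. Col4a1, a chain of the basement membrane collagen, had 44.03, 43.54 and 34.02 FPKM in CPIP and 29.71, 26.88 and 32.46 FPKM in CPIP+EA, with a log2 fold change of -0.44. Col4a2, its partner chain, had -0.36, Hspg2, perlecan of the basement membrane, -0.39 and Lrp1, the receptor that takes up proteases bound to their inhibitors, -0.36. Each of these 4 genes had an adjusted p of 0.996 with limma. No CPIP+EA library reached the range of CPIP for Col4a1 and Lrp1, while the third CPIP+EA library lay within it for Col4a2 and Hspg2. Against Sham, 1 of 29 substrates was higher and 15 were lower with CPIP+EA at an unadjusted p under 0.05, with a median of -0.42, and 1 of 37 activators and inhibitors was higher and 9 lower, with a median of -0.078. Over all tested genes 6.59% were higher and 5.63% lower in that comparison. The fibroblast and meningeal list shares Col1a1, Col3a1, Dcn and Lum with the substrates, and its sums are those given above.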

How the data were processed

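RNA-Seq of L4–6 DRGs was analysed in 9 libraries, 3 each of Sham, CPIP and CPIP+EA, grouped by the sample labels. The study sequenced single-end reads of 50 bases and filtered them with SOAPnuke 1.5.2. The authors deposited FPKM per gene and library, scaled to gene length and mapped fragments and rounded to 2 decimals. The aligner, genome build, annotation and strandedness are not given in the sources used here, so reads of near-identical, overlapping and antisense genes cannot be told apart. The deposited log2 ratios, P-values and Q-values hold the authors' own comparisons and were not used.

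Genes that averaged 0.1 FPKM or more over the 9 libraries were tested on the scale log2(FPKM + 0.5). The test was limma 3.58.1, run in R 4.3.3 with a mean-variance trend (lmFit, contrasts.fit, eBayes), all libraries in 1 fit. Two-sided p-values were adjusted over the 17187 tested genes by the Benjamini-Hochberg method. They measure the spread between libraries within the 3 groups, pooled over all 9. DEGs had an adjusted p under 0.01 and a change of at least 1.5-fold. The files give no counts per gene, so no counting interval is given.

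Members were chosen by symbol. The members, roles and lists were chosen with earlier results of these data known. Values in every library are given for the TIMPs, for members past the DEG threshold or at an unadjusted p under 0.05 in any comparison, for the 5 members with the highest mean FPKM, and for Mmp8, Mmp9 and Mmp11. Of the other matrix genes, the 4 with the smallest p in each of the first 2 comparisons are named. Mmp13, Adamts1 and the other members named beside their role were chosen after their values were seen.

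Each result was computed again with pseudocounts of 0.1 and 1, without the filter and with a filter at 1 FPKM, after quantile normalization, median centring and scaling to TPM, and with a robust trend and with none. Further alternatives were a replicate block, a fit of the 2 compared groups alone, another threshold, and leaving out each library. All 49 members were found in the RefSeq gene list (GRCr8), which gave gene order, and its promoter table gave sequences. The fit was also run on simulated data of 12560 genes, fewer than the 17187 tested. Between CPIP+EA and CPIP it called 90 of 100 genes changed 2-fold, 96 of 100 changed 4-fold and 5 unchanged genes. How often it would call such changes in the members, several of which had low FPKM, was not tested. Tables were made with Python 3.11.15, numpy 2.4.6 and pandas 2.3.3, and figures with matplotlib 3.10.9.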

Additional observations from a re-analysis of the deposited data

How the results depend on the processing

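The count of members past the DEG threshold depended on the setting, because Mmp3 and Mmp16 lay close to it. For CPIP against Sham the count of 2 became 1 with a pseudocount of 1 or a mean FPKM of at least 1 (Mmp16), and 1 without a filter, with quantile normalization, on the TPM scale, with median centring or with only the 2 groups compared (Mmp3). With the replicate number as a block it was 0. It ranged from 0 to 2 when 1 library was left out, with 2 without the third CPIP+EA library, 1 without the first and 0 without any other, so each Sham and CPIP library and the second CPIP+EA library ended both calls. The adjusted p of both genes stayed under 0.05 in every alternative that tested them, and the filter of 1 leaves out Mmp3. For CPIP+EA against Sham the count of 2 became 1 with a mean FPKM of at least 1, with quantile normalization and with the replicate block, and 0 with only the 2 groups compared. It ranged from 0 to 2 when 1 library was left out, with 0 without any Sham library or the second CPIP+EA library and 1 (Mmp3) without the second CPIP library or the first CPIP+EA library. For CPIP+EA against CPIP it was 0 in every alternative.

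The 5 members at an unadjusted p under 0.05 between CPIP+EA and CPIP became 3 without the second CPIP+EA library and 9 without the third, which added Mmp2, Mmp23, Timp1 and Timp4. They were 4 with the replicate block. The counts of 10 for CPIP against Sham and 16 for CPIP+EA against Sham stayed between 7 and 12 and between 13 and 17 when 1 library was left out. The share of all tested genes was not counted in these alternatives, so the changes in count are not a result about the members. Deviations of same-numbered libraries from their group means had a correlation over 0.1 in 2 of 9 pairs, with a range from -0.236 to 0.297. The labels state no pairing, and these correlations cannot decide whether same-numbered libraries share one. Of 1019 values of single members under the alternatives, 965 stayed on their side of an unadjusted p of 0.05, 45 no longer passed it and 9 newly passed it. Of the 965, 10 that passed in neither fit moved by more than the SE. Mmp28 crossed that p most often and kept its direction. The cause was not tested. The number of fragments behind each value is not known.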
